A study of Mus musculus with 22 samples.

Results

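Chemokines are small secreted proteins that guide leukocytes along concentration gradients, and they signal through G-protein-coupled receptors on the cells they attract. Their names follow the spacing of conserved cysteines (CC, CXC, CX3C and XC), and the atypical receptors (Ackr) bind chemokines without G-protein signalling and clear or transport them. In the liver, Kupffer cells, endothelial cells, stellate cells and hepatocytes all make chemokines, which recruit monocytes, neutrophils and lymphocytes in steatohepatitis. The genes described here are all 63 symbols of the families Ccl, Cxcl, Cx3cl, Xcl, Ccr, Cxcr, Cx3cr, Xcr and Ackr in the deposited count tables, out of 45777 genes. They comprise 40 ligands, including the pseudogenes Ccl19-ps1 and Ccl19-ps2, and 23 receptors.

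Liver RNA came from 22 male wild-type C57BL/6J mice in 2 cohorts of 11, and the labels name each cohort as a batch. The HFD cohort held 4 livers from HFD-fed mice given DTMB, 4 from HFD-fed mice given vehicle and 3 from mice on normal diet given vehicle. The MCD cohort held 3 livers from MCD-fed mice given DTMB, 4 from MCD-fed mice given vehicle and 4 from mice on normal diet given vehicle. The labels mark the HFD vehicle livers as MASLD and the MCD vehicle livers as MASH, the metabolic dysfunction-associated steatotic liver disease and steatohepatitis. DTMB, a compound known here by its code name, was given by mouth at 10 mg/kg/day. Age and time on diet are not given in the labels, and nothing states that replicates with the same number share a cage or a day. All groups therefore share sex, strain and genotype, and within a cohort they differ by diet and compound. Each library is labelled as a biological replicate, and total counts ran between 50078966 and 66727450 per library.

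Of the 63 genes, 44 had enough counts to be tested in the HFD cohort and 46 in the MCD cohort, with 42 tested in both. Cxcr5 and Ackr1 were tested in the HFD cohort alone, and Ccr3, Xcl1, Cxcl5 and Ccl19-ps2 in the MCD cohort alone. The remaining 15 were tested in neither cohort. Of these, Ccl20, Cxcl15, Cxcl17 and Ccl26 had no count in any library, and the other 11 (Ccr6, Ccr1l1, Ccr4, Ccr8, Ccr10, Ccl1, Ccl11, Ccl12, Ccl17, Ccl8 and Cxcl3) stayed at or below 0.316 CPM (counts scaled to library size) in every library. These genes were not tested, and no statement on them is made beyond their counts. Ccr10 had 9, 13, 7 and 5 counts in the MCD vehicle livers, against 0 in all 4 normal-diet livers of that cohort. Ccl17 had 12, 8, 6 and 9 counts in the MCD vehicle livers, against 0, 0, 0 and 2 counts on normal diet. A member that passed this count minimum only through the group where it is high had to differ, so counts over tested members are read with that in mind. Too few normal-diet libraries reached that minimum for, among others, Ccl3, Ccl4, Ccl7, Ccl19, Ccl22 and Xcr1 in the HFD cohort. In the MCD cohort the same held for Ccr1, Ccl3, Ccl4, Ccl22, Cxcl2, Cxcl5, Cxcr1, Cxcr2, Cxcr3 and Cxcr6, among others. Ccl27b passed in that cohort through its normal-diet livers, where it is high. Calls of these members are not independent of that filter. Unless a length is named, values are CPM over library sizes scaled by trimmed mean of M-values (TMM) computed per cohort; levels in different cohorts are given side by side and not tested. A gene is called where edgeR's quasi-likelihood test gave a Benjamini-Hochberg adjusted p under 0.05 over all genes tested in that cohort.

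The level per kilobase of exon was led in all 6 groups by Cxcl12, the ligand of Cxcr4 that retains haematopoietic and immune cells in tissues. It averaged 29.8 ± 3.4 CPM per kb in HFD DTMB livers, 27.9 ± 1.0 in HFD vehicle livers and 30.7 ± 2.7 on normal diet (SD, n = 4, 4 and 3). In the MCD cohort it averaged 26.2 ± 2.2 CPM per kb in MCD DTMB livers, 27.8 ± 6.5 in MCD vehicle livers and 32.6 ± 4.3 on normal diet (SD, n = 3, 4 and 4). Cxcl12 was called in none of the 6 comparisons within a cohort. The next positions were held by Ccl9 and Ccl6, CC chemokines of the mouse that bind Ccr1, and by Cxcl9, an interferon-gamma-induced ligand of the T cell receptor Cxcr3. Ccl9 took the second place on normal diet in both cohorts, whereas Cxcl9 took it in HFD vehicle livers, at 12.4 ± 7.3 CPM per kb (SD, n = 4) beside 7.44 ± 1.3 for Ccl9. These 2 values lie within 1 SD of each other. In MCD vehicle livers Ccl6 and Ccl9 both averaged 12.8 CPM per kb, with an SD of 7.1 for Ccl6 and of 4.7 for Ccl9 (n = 4 each).

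Promoter sequences (RefSeq, GRCm38.p6, 250 bases before to 50 after the start) were found for 46 of the 63 genes. A kappa-B motif, searched on both strands, lay in 12 of the 53 promoter sequences of these genes, against 8.46% of all 32851 promoters of that length. A pair of GAAA blocks 2 bases apart, the core of interferon-stimulated response elements, lay in 3 (3.44% of all promoters), and TTCNNNGAA, a palindrome, in 4 (8.3%). Below are the promoters of 2 ligands of Cxcr2 and 2 ligands of Cxcr3, shown because the results turn on these ligands. Capitals mark kappa-B matches and, in the first capital run of Cxcl10, the GAAA pair. The Cxcl1 promoter spans chr5:90890995-90891294 on the plus strand, Cxcl2 chr5:90903649-90903948 on the plus strand, Cxcl9 chr5:92328030-92328329 on the minus strand and Cxcl10 chr5:92348840-92349139 on the minus strand.
Cxcl1: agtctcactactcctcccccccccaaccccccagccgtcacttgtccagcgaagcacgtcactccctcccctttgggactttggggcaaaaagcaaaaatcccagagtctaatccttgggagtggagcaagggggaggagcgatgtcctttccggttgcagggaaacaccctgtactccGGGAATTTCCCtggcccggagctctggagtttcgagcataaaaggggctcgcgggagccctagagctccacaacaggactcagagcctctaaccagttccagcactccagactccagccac
Cxcl2: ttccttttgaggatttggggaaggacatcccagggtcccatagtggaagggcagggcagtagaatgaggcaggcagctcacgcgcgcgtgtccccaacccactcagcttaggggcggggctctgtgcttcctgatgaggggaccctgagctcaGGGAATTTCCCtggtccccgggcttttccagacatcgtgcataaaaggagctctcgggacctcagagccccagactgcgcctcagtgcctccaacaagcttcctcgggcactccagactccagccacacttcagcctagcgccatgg
Cxcl9: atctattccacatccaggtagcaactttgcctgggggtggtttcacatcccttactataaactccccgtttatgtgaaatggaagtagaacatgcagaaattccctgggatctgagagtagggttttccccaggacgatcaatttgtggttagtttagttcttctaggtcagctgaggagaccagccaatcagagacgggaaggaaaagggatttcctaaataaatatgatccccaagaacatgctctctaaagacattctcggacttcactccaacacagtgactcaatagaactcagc
Cxcl10: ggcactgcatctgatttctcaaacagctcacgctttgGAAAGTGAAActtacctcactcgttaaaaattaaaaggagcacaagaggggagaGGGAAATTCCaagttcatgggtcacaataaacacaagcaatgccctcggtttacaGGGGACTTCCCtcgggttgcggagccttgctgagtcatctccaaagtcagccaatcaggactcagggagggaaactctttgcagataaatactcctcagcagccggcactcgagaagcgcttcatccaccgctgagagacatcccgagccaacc
The kappa-B run began 71 bases before the start in Cxcl1 and 97 bases before it in Cxcl2. Both genes held the same letters there, in which the motif matched on each strand, 1 base apart. Cxcl10 held kappa-B matches 159 and 104 bases before the start and the GAAA pair 213 bases before it. None of the 3 motifs was found in the Cxcl9 window. A match is a description of the letters, not a binding site.

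Some libraries carried transcripts of neighbouring tissue or more leukocyte transcripts than others of their group. The summed pancreatic acinar marker list was above 100 CPM in 6 libraries, namely HFD DTMB library 3 (2470 CPM), HFD vehicle libraries 1 and 4 (630 and 4263 CPM), normal-diet libraries 1 and 3 of the HFD cohort (1960 and 1754 CPM) and normal-diet library 4 of the MCD cohort (516 CPM). All other libraries were between 7.47 and 25.5 CPM. Normal-diet library 1 of the HFD cohort also reached 318 CPM for skeletal muscle markers. HFD vehicle library 3 was the lowest of its group for 31 of the 44 tested members. MCD DTMB library 1 was the highest of its group for 33 of the 46 tested members, and library 3 the lowest for 27. The summed hepatocyte list lay between 83640 and 137118 CPM in all 22 libraries.

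Feeding HFD raised chemokines that attract monocytes and T cells, together with 2 receptors of monocytes, in vehicle-treated livers. Of 44 members tested, 13 were called higher and 0 lower, against 27.8% of all genes called in either direction (15.2% higher, 12.6% lower). The called members were 9 ligands (Cxcl1, Cxcl10, Ccl2, Cxcl9, Ccl22, Ccl3, Ccl19, Ccl7 and Ccl4) and 4 receptors, Cx3cr1, Ccr2 and Xcr1 among them. The median log2 fold change was 0.86 over the 44 members and 0.02 over all genes tested, and 39 of 44 were above 0. In 14 members every HFD vehicle library was above every normal-diet library, and in 0 below, beside 19.0% and 17.0% of all genes.

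Cxcl1, a Cxcr2 ligand that attracts neutrophils, stood at 3.95, 1.99, 1.76 and 4.58 CPM in the 4 HFD vehicle livers, against 0.232, 0.326 and 0.533 CPM on normal diet. Every HFD vehicle library was above every normal-diet library. The log2 fold change was 3.08 ± 0.40 (SE), with an edgeR adjusted p of 0.00022. Its relative Cxcl2 reached 0.476, 0.331, 0 and 0.511 CPM in HFD vehicle livers and 0.0619, 0.0576 and 0 CPM on normal diet. Cxcl2 was not called (2.96 ± 1.05, edgeR adjusted p = 0.054), and its groups overlapped at 0.

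Ccl2, the main ligand of the monocyte receptor Ccr2, was at 3.58, 1.21, 1.10 and 2.83 CPM in HFD vehicle livers, against 0.263, 0.250 and 0.276 CPM on normal diet. The groups did not overlap, and the 2 highest HFD vehicle libraries were libraries 1 and 4, those with acinar transcripts. The log2 fold change was 3.04 ± 0.50 (edgeR adjusted p = 0.00112). Ccl7, another Ccr2 ligand beside Ccl2 on chromosome 11, had 18, 14, 0 and 10 counts in the 4 HFD vehicle libraries, 42 in all, and 0 over the 3 normal-diet libraries. It passed the count minimum through the HFD vehicle livers, so it had to differ. Against a floor of 3 counts over the normal-diet group this is at least 10.2-fold higher (counting error only), although HFD vehicle library 3 was also at 0.

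The interferon-induced ligands of Cxcr3 rose together. Cxcl10 was at 16.2, 7.75, 5.83 and 12.1 CPM in HFD vehicle livers and at 1.73, 0.979 and 2.06 CPM on normal diet. Cxcl9 was at 67.1, 35.8, 14.2 and 32.6 CPM in HFD vehicle livers and at 8.41, 4.68 and 7.10 CPM on normal diet. In both genes every HFD vehicle library was above every normal-diet library, with HFD vehicle library 3 the lowest of its group. The log2 fold change was 2.71 ± 0.41 for Cxcl10 (edgeR adjusted p = 0.000669) and 2.47 ± 0.54 for Cxcl9 (edgeR adjusted p = 0.00533). The third gene of that cluster, Cxcl11, is annotated as a transcribed pseudogene in this reference and was not called (0.72 ± 0.39).

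The remaining called ligands were expressed at lower levels and passed the count minimum through the HFD-fed livers. Ccl22, a Ccr4 ligand of dendritic cells and macrophages, rose by 3.42 ± 0.75 on the log2 scale, with 0.860, 0.268, 0.387 and 0.774 CPM in HFD vehicle livers and 0.0929, 0.0576 and 0 CPM on normal diet. Those libraries did not overlap, and they held 147 against 9 counts in all. Ccl4, a chemokine of activated macrophages and lymphocytes, rose by 2.72 ± 0.92 and Ccl19, the Ccr7 ligand of lymphoid stroma, by 1.74 ± 0.57 (edgeR adjusted p = 0.0441 and 0.0401). Ccl3, which binds Ccr1, had 74 counts in HFD vehicle livers against 2 on normal diet, a ratio of 27.0 with a 95% counting interval of 7.22 to 227 (edgeR adjusted p = 0.0352). Ccl19 shares 52.0% of its 50-base words with other genes, so reads of near-identical copies may be counted in it.

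Among receptors, Cx3cr1, the fractalkine receptor of monocytes and macrophages, was at 2.18, 1.70, 0.855 and 3.23 CPM in HFD vehicle livers and at 0.325, 0.288 and 0.276 CPM on normal diet. Ccr2 was at 4.18, 2.71, 0.984 and 4.61 CPM in HFD vehicle livers and at 0.511, 0.345 and 0.589 CPM on normal diet. Neither gene overlapped between the groups. The log2 fold changes were 2.74 ± 0.40 for Cx3cr1 and 2.69 ± 0.45 for Ccr2 (edgeR adjusted p = 0.000523 and 0.00123). Xcr1, a receptor of cross-presenting dendritic cells, rose by 1.32 ± 0.43, with 0.200, 0.331, 0.290 and 0.356 CPM in HFD vehicle livers and 0.124, 0.154 and 0.0736 CPM on normal diet. In bulk tissue, more cells of a type and more RNA per cell cannot be told apart, and the same holds for fewer and less.

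The calls in HFD vehicle livers differed in how far they depended on single libraries. The count of called members was 8 without normal-diet library 1, 7 without normal-diet library 2, 8 without HFD vehicle library 1 and 7 without HFD vehicle library 4, and it was 2 (Cxcl1 and Cxcl10) when the 5 libraries over 100 CPM of acinar markers were dropped; the 1 normal-diet library left is then assumed to vary like the other groups. Cxcl1 and Cxcl10 passed under all 22 alternative settings tried, and Ccl2, Ccr2, Cx3cr1 and Cxcl9 under all but the one without acinar libraries, where their log2 fold changes were 2.19, 2.41, 2.14 and 2.41.

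Other lists give the setting of these changes. Over all genes, 15.2% were called higher and 12.6% lower, so a count near these shares says nothing particular about a list. Of 24 monocyte and macrophage markers, 12 were called higher and 1 lower with HFD, among them Mpeg1 at 107 ± 49 CPM in HFD vehicle livers and 35.4 ± 6.3 on normal diet (SD, n = 4 and 3). The summed list ran between 337 and 810 CPM in HFD vehicle livers and between 222 and 325 CPM on normal diet, with HFD vehicle library 3 the lowest of its group. Of 18 tested T and NK cell markers, 2 were called higher (Cd8b1 and Cd4), and of 4 tested neutrophil markers, 0. Of 19 inducers and regulators of chemokine transcription, 8 were called higher and 0 lower, among them Tnfaip3, a target and inhibitor of NF-kB, at 1.18 ± 0.22. Of 30 chemokine receptor signalling genes, 8 were called higher and 0 lower, and of 12 companions of chemokines (proteases, proteoglycans and other chemoattractants), 3 were higher and 2 lower. The macrophage elastase Mmp12, which cleaves chemokines, rose by 3.07 ± 0.62, and the heparan sulfate proteoglycan Sdc1 fell by 0.80 ± 0.09. Of 10 tested biliary markers, 2 were higher and 1 lower, with a summed level of 374 to 537 CPM in HFD vehicle livers and 297 to 317 CPM on normal diet. Of 18 tested handling and immediate-early genes, 6 were higher and 0 lower, with a summed level of 276 to 295 CPM in HFD vehicle livers and 158 to 252 CPM on normal diet. The part of these lists in the chemokine changes was not tested.

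**Figure D1:**
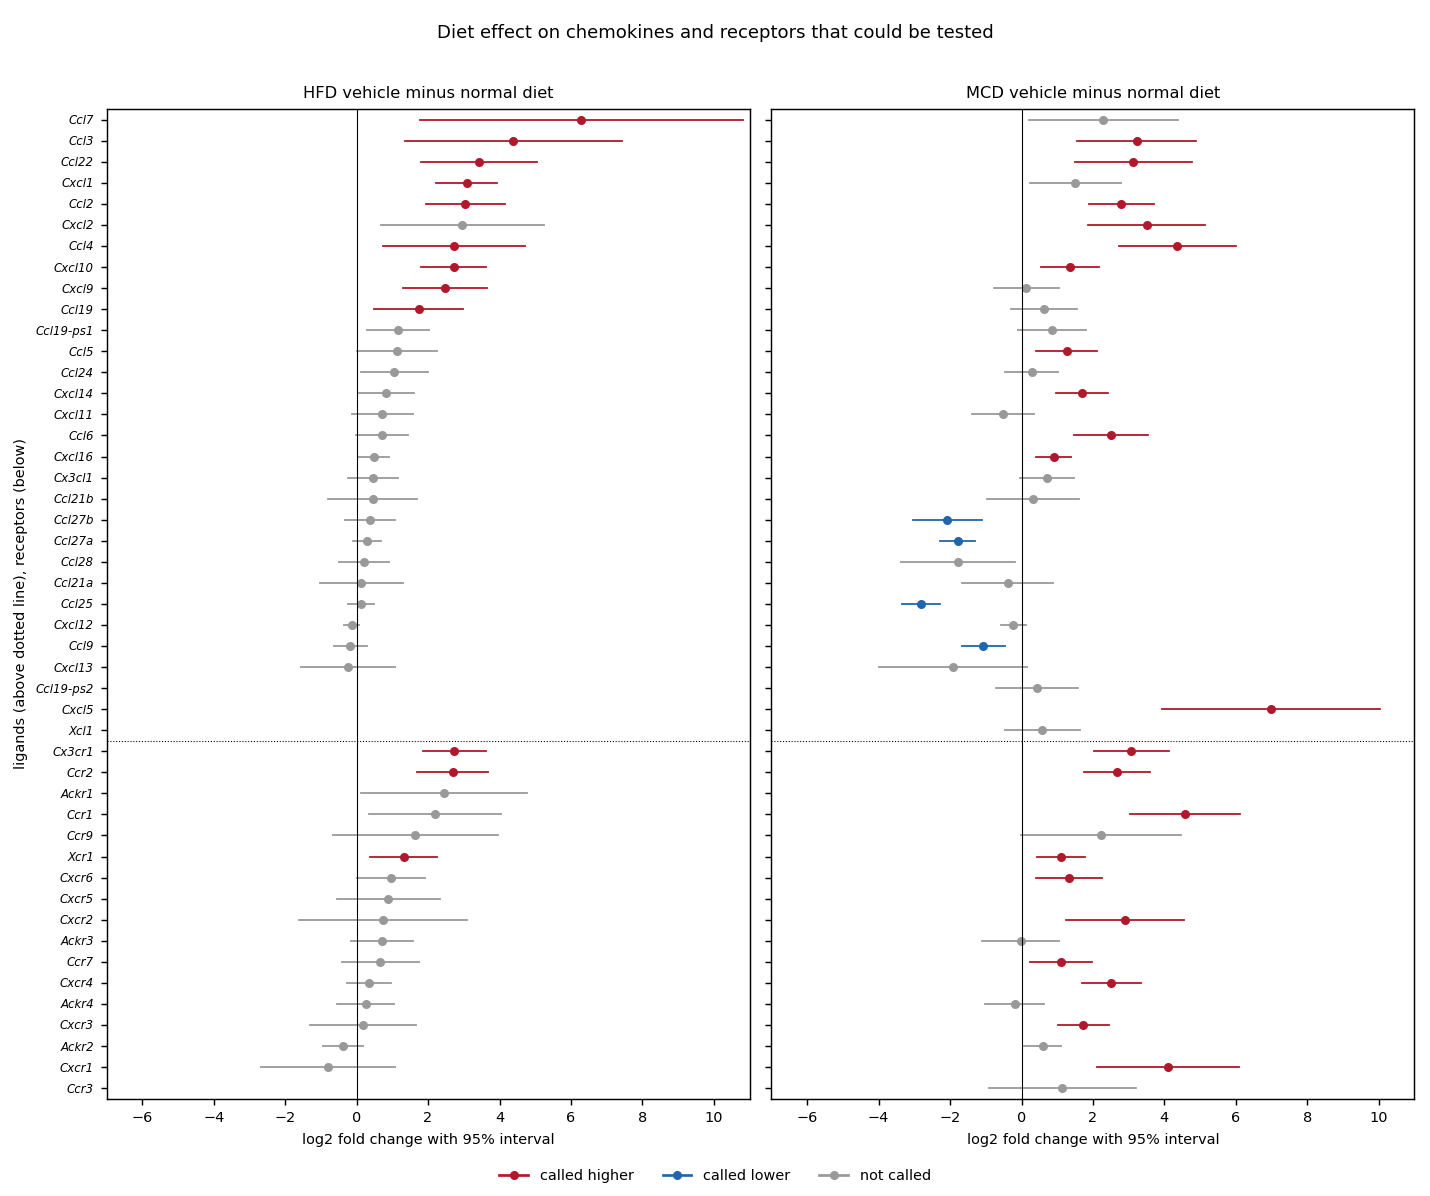
Log2 fold change (points) with 95% intervals (lines) of HFD vehicle against normal diet (left) and MCD vehicle against normal diet (right) for the tested chemokines (above the dotted line) and receptors (below) reported here. Red marks members called higher with HFD or MCD, and blue the 4 called lower with MCD; the points of Ccl7 (left) and Cxcl5 (right) rest on 0 counts on normal diet and are no bound.

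DTMB in HFD-fed mice lowered several of the members that HFD raised. Against HFD vehicle, 7 of 44 members were called lower and 1 higher, beside 12.7% of all genes called in either direction (6.04% lower, 6.64% higher). The lower ones were Ccl2, Cx3cr1, Cxcl1, Ccr2, Cxcl14, Cxcr4 and Cxcl16, and the higher one was Ccl9. The median log2 fold change was -0.75 over the 44 members and -0.01 over all genes, and 8 of 44 were above 0. Libraries of the groups did not overlap in 6 members that were lower and 1 that was higher, beside 9.35% and 10.5% of all genes. Both comparisons use the same HFD vehicle livers, so their values enter each of them.

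Ccl2 was at 0.593, 0.242, 0.214 and 0.406 CPM in HFD DTMB livers, against 3.58, 1.21, 1.10 and 2.83 CPM in HFD vehicle livers. The groups did not overlap, and the log2 fold change was -2.58 ± 0.44 (edgeR adjusted p = 0.00987). Ccl2 passed under 21 of 22 alternative settings. The exception was the one without acinar libraries, where it stood at -1.47 with an edgeR adjusted p of 0.272; over all settings its adjusted p reached no higher.

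Cxcl1 was at 1.26, 1.31, 1.30 and 1.44 CPM in HFD DTMB livers, against 3.95, 1.99, 1.76 and 4.58 CPM in HFD vehicle livers. The 4 HFD DTMB libraries lay close together below every HFD vehicle library, and Cxcl1 fell by 1.21 ± 0.31 (edgeR adjusted p = 0.0301). Ccr2 was at 1.31, 0.946, 1.19 and 1.13 CPM in HFD DTMB livers, against 4.18, 2.71, 0.984 and 4.61 CPM in HFD vehicle livers. Cx3cr1 was at 0.881, 0.906, 0.741 and 0.677 CPM in HFD DTMB livers, against 2.18, 1.70, 0.855 and 3.23 CPM in HFD vehicle livers. In both receptors HFD vehicle library 3 lay within the HFD DTMB range and the other 3 vehicle libraries above it. Ccr2 fell by 1.45 ± 0.38 and Cx3cr1 by 1.32 ± 0.33 (edgeR adjusted p = 0.0304 and 0.0265).

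Cxcl14, a chemokine of epithelia and stroma, was at 0.431, 0.282, 0.840 and 0.406 CPM in HFD DTMB livers, against 1.34, 0.994, 0.904 and 1.49 CPM in HFD vehicle livers. Cxcr4, the Cxcl12 receptor of leukocytes, was at 0.467, 0.383, 0.510 and 0.389 CPM in HFD DTMB livers, against 1.21, 0.820, 0.565 and 0.820 CPM in HFD vehicle livers. Neither overlapped between the groups, and they fell by 1.26 ± 0.33 and 0.96 ± 0.27. Neither had been called with HFD itself (0.83 ± 0.35 for Cxcl14 and 0.35 ± 0.28 for Cxcr4). Cxcl16, a transmembrane ligand of Cxcr6, was at 3.68, 3.14, 4.79 and 3.86 CPM in HFD DTMB livers and 7.59, 5.10, 4.33 and 7.12 CPM in HFD vehicle livers, a fall of 0.64 ± 0.19 with overlap at library 3 of each group.

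Ccl9 was the member called higher. It was at 25.7, 31.6, 49.1 and 40.4 CPM in HFD DTMB livers, against 26.1, 17.1, 25.0 and 22.3 CPM in HFD vehicle livers, and only HFD DTMB library 1 lay inside the vehicle range. The log2 fold change was 0.70 ± 0.20 (edgeR adjusted p = 0.0401). Ccl9 passed under 9 of 22 alternative settings. It did not pass when counts were scaled by library size alone. That setting moved the median of all genes to -0.17 and called 0 members higher and 11 lower. The Cxcr3 ligands Cxcl9 and Cxcl10 were not called, at -1.40 ± 0.46 and -1.03 ± 0.34 (edgeR adjusted p = 0.0643 and 0.0649), and neither was Ccl27a, at 0.53 ± 0.16 (edgeR adjusted p = 0.051).

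Cxcl1 and Cx3cr1 passed under 14 of 22 alternative settings each, Ccr2 and Cxcl14 under 13, Cxcl16 under 8, and Cxcr4 under 9 of 21. Single libraries moved the count of 8 called members widely. It was 1 without HFD vehicle library 1, 3 without library 2, 16 without library 3 and 1 without library 4. It was 1 without HFD DTMB library 2, 3 without library 3 and 1 without library 4. When libraries over 100 CPM of acinar markers were dropped, 2 vehicle and 3 DTMB livers remained and 0 members and 0 genes were called. Among the libraries dropped, HFD vehicle libraries 1 and 4 had the highest Ccl2 of their group. DTMB library 3, with 2470 CPM of acinar markers, had the lowest Ccl2 of its group, at 0.214 CPM. The part of acinar transcripts in these values was not tested.

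Other lists also held genes that were called lower with DTMB, beside 6.04% of all genes called lower and 6.64% higher. Of 19 tested inducers and regulators, 0 were called higher and 8 lower, with Tnfaip3 at 2.46 ± 0.67 CPM in HFD DTMB livers and 6.07 ± 1.1 in HFD vehicle livers (-1.31 ± 0.20), and the cytokine Il1b at 0.339 ± 0.080 and 1.28 ± 0.45 CPM (-1.91 ± 0.40; SD, n = 4 each). Of 30 receptor signalling genes, 5 were called lower and 0 higher, led by the receptor kinase Grk5 (-0.68 ± 0.12), the Rac exchange factor Prex1 (-0.77 ± 0.19) and the arrestin Arrb2 (-0.42 ± 0.11). Of 12 companions, Plau and Mmp12 were lower (-1.13 ± 0.30 and -1.89 ± 0.51). Of 24 monocyte and macrophage markers, 4 were called lower and 0 higher, with Cd14 at -1.45 ± 0.29. Their summed list ran between 285 and 438 CPM in HFD DTMB livers and between 337 and 810 CPM in HFD vehicle livers. In the same order, summed biliary markers were at 286 to 345 and 374 to 537 CPM, without overlap. Stellate cell and fibroblast markers were at 336 to 405 and 388 to 579 CPM. Neutrophil markers, G0s2 included, were at 104 to 382 and 129 to 205 CPM. Of 18 handling and immediate-early genes, 5 were lower and 1 higher, including Egr2 at -3.09 ± 0.60 and Fos at -1.26 ± 0.29. The part of these regulators, of cell content and of handling in the chemokine changes was not tested.

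Against normal diet, HFD DTMB livers had 5 of 44 members called, 4 higher and 1 lower, beside 29.2% of all genes. Cxcl1 was higher by 1.87 ± 0.39, Cxcl10 by 1.68 ± 0.40 and Cx3cr1 by 1.42 ± 0.40, beside 3.08, 2.71 and 2.74 for HFD vehicle against the same 3 normal-diet livers. Ccl27a, a Ccr10 ligand, was at 3.27, 3.76, 3.74 and 5.04 CPM in HFD DTMB livers and at 2.66, 2.15 and 1.89 CPM on normal diet. Every HFD DTMB library was above every normal-diet library (0.82 ± 0.18, edgeR adjusted p = 0.00532), but 45.0% of the 50-base words of Ccl27a occur in other genes. Ackr2, the scavenger of inflammatory CC chemokines, was at 3.15, 2.30, 1.27 and 2.47 CPM in HFD DTMB livers and 3.17, 5.53 and 5.98 CPM on normal diet. It fell by 1.09 ± 0.27 (edgeR adjusted p = 0.00925), with no overlap but a narrow gap to normal-diet library 1. The 5 calls became 8 without HFD DTMB library 1 and 2 (Cxcl1 and Ackr2) without the acinar libraries. Ccl2 was not called between HFD DTMB livers and normal diet.

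**Figure D2:**
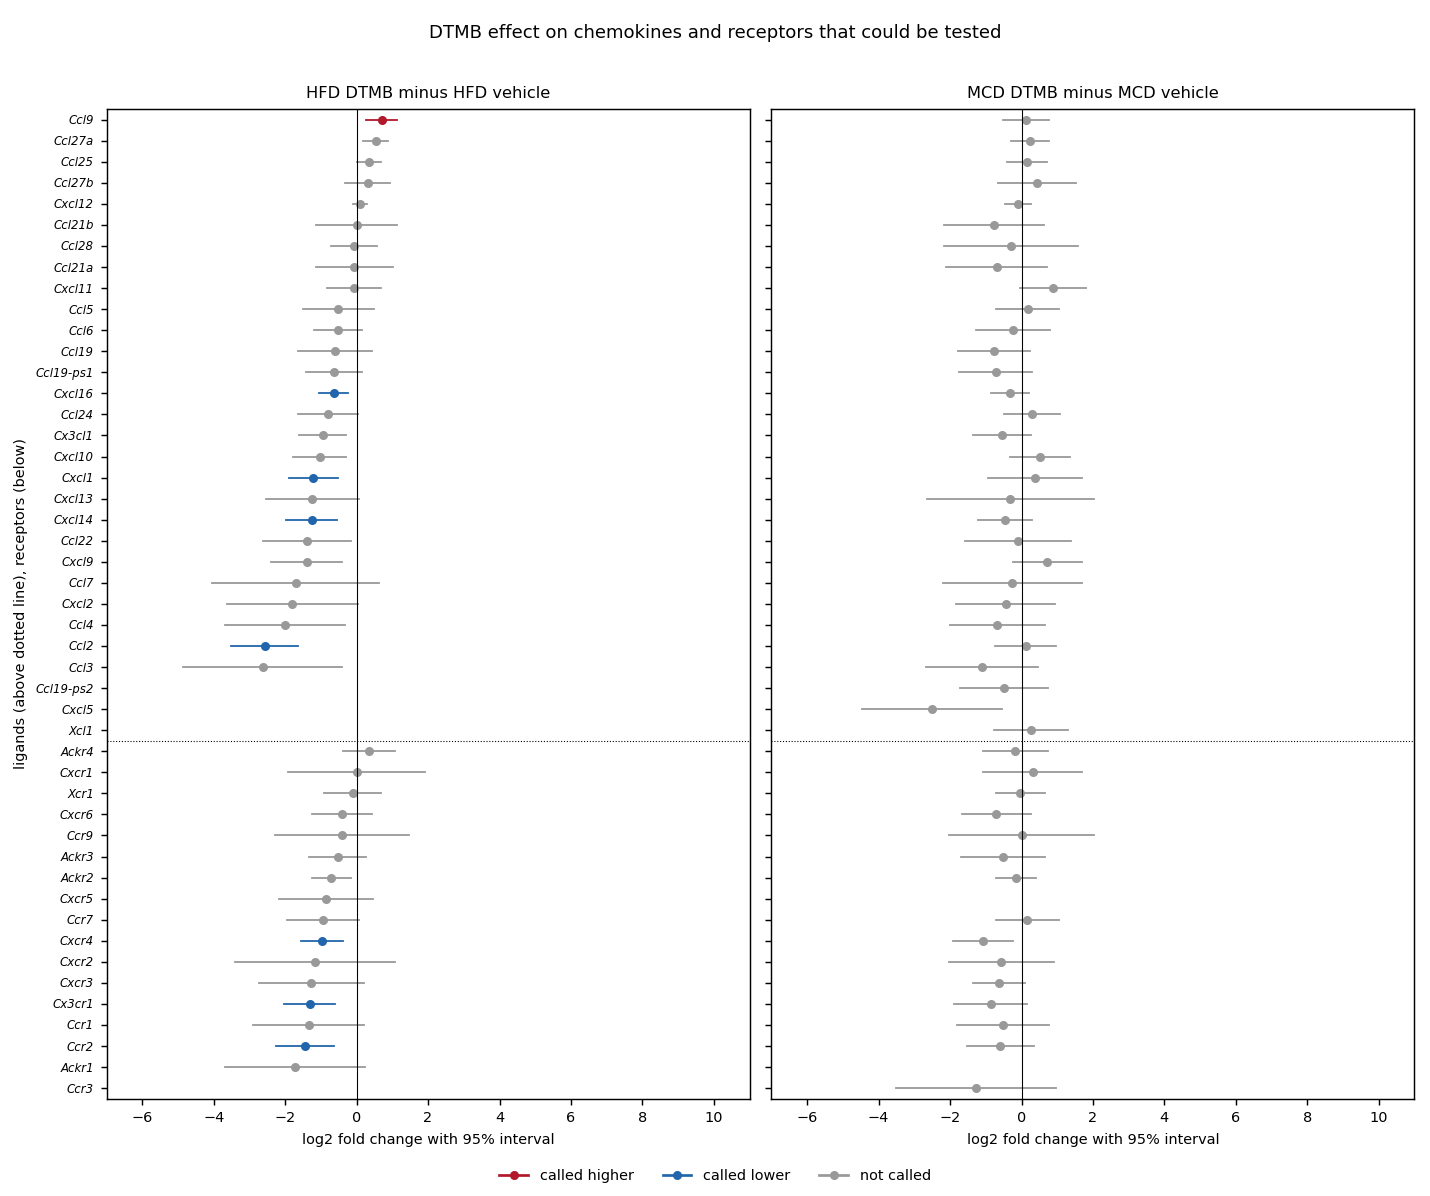
Log2 fold change (points) with 95% intervals (lines) of HFD DTMB against HFD vehicle (left) and MCD DTMB against MCD vehicle (right) for the tested members reported here, ordered by the left panel within ligands and receptors. Blue marks the 7 members called lower in the HFD cohort and red the 1 called higher, while those in the MCD cohort are grey.

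MCD feeding moved more members, in both directions. Of 46 members tested, MCD vehicle livers had 21 called higher and 4 lower than normal diet, beside 41.3% of all genes called (20.3% higher, 21.0% lower). The median log2 fold change was 1.11 over the members and 0.00 over all genes. Libraries of the groups did not overlap in 18 higher and 5 lower members, beside 17.8% and 19.9% of all genes. The called higher ones were 11 ligands and 10 receptors, and the 4 lower ones were all ligands, Ccl25, Ccl27a, Ccl9 and Ccl27b. Scaling by library size alone moved the median of all genes to 0.47 and gave 28 members higher and 3 lower; Ccl9 then stood at -0.61 and did not pass, while Ccl25, Ccl27a and Ccl27b remained lower.

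Ccl25, a Ccr9 ligand best known from thymus and small intestine, was at 0.731, 0.383, 0.449 and 0.701 CPM in MCD vehicle livers, against 4.44, 3.56, 3.83 and 4.14 CPM on normal diet. The gap between the groups was several times the range of either. It fell by 2.82 ± 0.24 (edgeR adjusted p = 5.96e-06). Ccl25 was also the member of smallest p in this comparison, and it passed under all 22 alternative settings. Its exons overlap Elavl1 on the opposite strand by 204 bases, and the labels do not state whether counting used the strand.

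Ccl27a was at 0.979, 0.647, 1.13 and 1.31 CPM in MCD vehicle livers, against 3.94, 3.54, 3.10 and 3.47 CPM on normal diet, with no overlap. It fell by 1.79 ± 0.23 (edgeR adjusted p = 0.000103). Ccl27b fell by 2.08 ± 0.44, but 98.1% of its 50-base words occur in other genes, Ccl27a among them, so the 2 values are not independent. Ccl27b also passed the count minimum through the normal-diet livers, so its call is not independent of that filter. Ccl9 was at 22.4, 56.8, 35.6 and 40.7 CPM in MCD vehicle livers and 97.0, 84.9, 71.4 and 74.2 CPM on normal diet. It fell by 1.07 ± 0.28 (edgeR adjusted p = 0.00901), with MCD vehicle library 2 the nearest to the normal-diet range. On chromosome 11 Ccl9 lies next to Ccl6, which went the other way.

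Ccl6 was at 9.32, 39.8, 23.9 and 19.0 CPM in MCD vehicle livers and 2.46, 7.17, 2.71 and 3.84 CPM on normal diet. The groups did not overlap, and the log2 fold change was 2.51 ± 0.47 (edgeR adjusted p = 0.0014). Ccl2 was at 1.47, 2.83, 3.35 and 2.29 CPM in MCD vehicle livers and 0.629, 0.361, 0.213 and 0.216 CPM on normal diet. It rose by 2.79 ± 0.41 (edgeR adjusted p = 0.000297), again without overlap. Ccl4 was at 0.274, 0.977, 1.16 and 0.655 CPM in MCD vehicle livers and 0.0925, 0.0451, 0 and 0 CPM on normal diet, a rise of 4.36 ± 0.75 (edgeR adjusted p = 0.000771). Ccl3 rose by 3.22 ± 0.77, Ccl22 by 3.13 ± 0.75 and Ccl5, a T cell and macrophage chemokine, by 1.27 ± 0.39. Ccl22 was tightly grouped in MCD vehicle livers, at 1.01, 0.964, 1.08 and 0.998 CPM, against 0.314, 0, 0 and 0.129 CPM on normal diet.

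Of the Cxcr2 ligands, Cxcl2 and Cxcl5 were called with MCD. Cxcl2 was at 0.235, 1.04, 0.515 and 0.390 CPM in MCD vehicle livers and 0.0555, 0.0677, 0 and 0.0647 CPM on normal diet, and rose by 3.51 ± 0.75 (edgeR adjusted p = 0.00306). Its 50-base words were shared with Cxcl3 for 5.8%. Cxcl5, a Cxcr2 ligand of epithelia and platelets, had 76 counts in MCD vehicle livers against 0 over the 4 normal-diet livers, at least 23.5-fold higher against a floor of 3 counts over that group. The MCD vehicle libraries held 7, 27, 29 and 13 counts; Cxcl5 passed the count minimum through them, so it had to differ. Cxcl1 was at 3.46, 12.8, 4.84 and 8.48 CPM in MCD vehicle livers and 3.77, 3.34, 1.84 and 1.45 CPM on normal diet. Those groups overlapped, and Cxcl1 was not called (1.51 ± 0.59, edgeR adjusted p = 0.0571).

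Of the Cxcr3 ligands, Cxcl10 rose by 1.36 ± 0.37, with 4.31, 5.03, 7.63 and 8.51 CPM in MCD vehicle livers and 2.85, 3.86, 2.30 and 0.928 CPM on normal diet. Cxcl9 was at 20.8, 9.81, 12.1 and 8.56 CPM in MCD vehicle livers and 10.2, 22.2, 7.79 and 6.65 CPM on normal diet. It was not called (0.13 ± 0.42, with a 95% interval of -0.77 to 1.04), and normal-diet library 2 was the highest of both groups. Cxcl14 rose by 1.69 ± 0.33 and Cxcl16 by 0.90 ± 0.23 (edgeR adjusted p = 0.00195 and 0.00819).

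Of the 16 receptors tested in the MCD cohort, 10 were called higher and 0 lower. Ccr1, a receptor of neutrophils and monocytes for Ccl3, Ccl5, Ccl6 and Ccl9, was at 0.888, 2.32, 1.74 and 2.00 CPM in MCD vehicle livers and 0.129, 0, 0 and 0.151 CPM on normal diet, and rose by 4.57 ± 0.71. Ccr1 passed the count minimum through the MCD-fed livers. Cxcr4 was at 2.64, 4.38, 3.52 and 1.95 CPM in MCD vehicle livers and 0.906, 0.293, 0.426 and 0.540 CPM on normal diet, and rose by 2.52 ± 0.38. Neither overlapped between groups (edgeR adjusted p = 0.000404 and 0.000323). Cx3cr1 was at 2.75, 6.34, 4.82 and 3.65 CPM in MCD vehicle livers and 1.09, 0.316, 0.387 and 0.259 CPM on normal diet, and rose by 3.07 ± 0.48. Ccr2 was at 3.41, 8.03, 5.78 and 3.85 CPM in MCD vehicle livers and 1.35, 0.767, 0.523 and 0.647 CPM on normal diet, and rose by 2.67 ± 0.43. MCD vehicle library 2 was the highest in Ccr1, Cxcr4, Cx3cr1 and Ccr2.

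The neutrophil receptor Cxcr2 rose by 2.90 ± 0.76, resting on 105 counts in MCD vehicle livers and 9 on normal diet. Its relative Cxcr1 had 61 counts against 2, a ratio of 28.3 with a 95% counting interval of 7.50 to 239. Cxcr1, Cxcr2, Cxcr3 and Cxcr6 passed the count minimum through the MCD-fed livers. Cxcr3, the T cell receptor for Cxcl9 and Cxcl10, rose by 1.74 ± 0.33. Cxcr6, a receptor of tissue-resident T and NKT cells, rose by 1.33 ± 0.42, Xcr1 by 1.11 ± 0.31 and Ccr7, the homing receptor of dendritic cells and naive T cells, by 1.10 ± 0.40, with overlapping groups in these last ones. Of the atypical receptors, none of the 3 tested was called, and Ackr2 was at 0.59 ± 0.24 (edgeR adjusted p = 0.068).

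Other lists were measured in the same MCD livers. Over all genes, 20.3% were called higher and 21.0% lower, so a count near these shares says nothing particular about a list. Of 24 monocyte and macrophage markers, 13 were higher and 0 lower, among them Gpnmb at 206 ± 97 CPM in MCD vehicle livers and 0.302 ± 0.39 on normal diet (SD, n = 4 each), and Trem2 at 5.51 ± 0.52. The summed list ran between 855 and 2275 CPM in MCD vehicle livers and between 251 and 651 CPM on normal diet, with MCD vehicle library 2 and normal-diet library 2 the highest of their groups. Of 7 tested neutrophil markers, 6 were higher, with S100a8 at 2.95 ± 0.60 and S100a9 at 2.16 ± 0.49; G0s2, also on that list, is expressed by hepatocytes too. Of 18 T and NK cell markers, 4 were higher and 1, Cd4, lower (-1.88 ± 0.36). Of 30 receptor signalling genes, 18 were higher and 2 lower, with the leukocyte coronin Coro1a at 1.94 ± 0.26 and the guanine nucleotide exchange factor Dock8 at -1.99 ± 0.24. Of 20 inducers, 8 were higher and 1 lower, led by Atf3 at 4.39 ± 0.37. Of 11 companions, 5 were higher and 2 lower, with Mmp12 at 98.8 ± 63 CPM in MCD vehicle livers and 0.452 ± 0.65 on normal diet, and Plau at 2.89 ± 0.38. Of 19 handling and immediate-early genes, 11 were higher and 0 lower. Of 14 stellate cell and fibroblast markers, 8 were higher and 0 lower, with a summed level of 625 to 1050 CPM in MCD vehicle livers and 200.2 to 469 CPM on normal diet. Of 10 tested biliary markers, 3 were higher and 0 lower (629 to 1191 CPM in MCD vehicle livers, 309.9 to 567 CPM on normal diet). Of 13 endothelial markers, 3 were higher and 0 lower, and the summed list was at 249 to 339 CPM in MCD vehicle livers and 158 to 199 CPM on normal diet. The part of cell content in the chemokine changes was not tested.

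**Figure D3:**
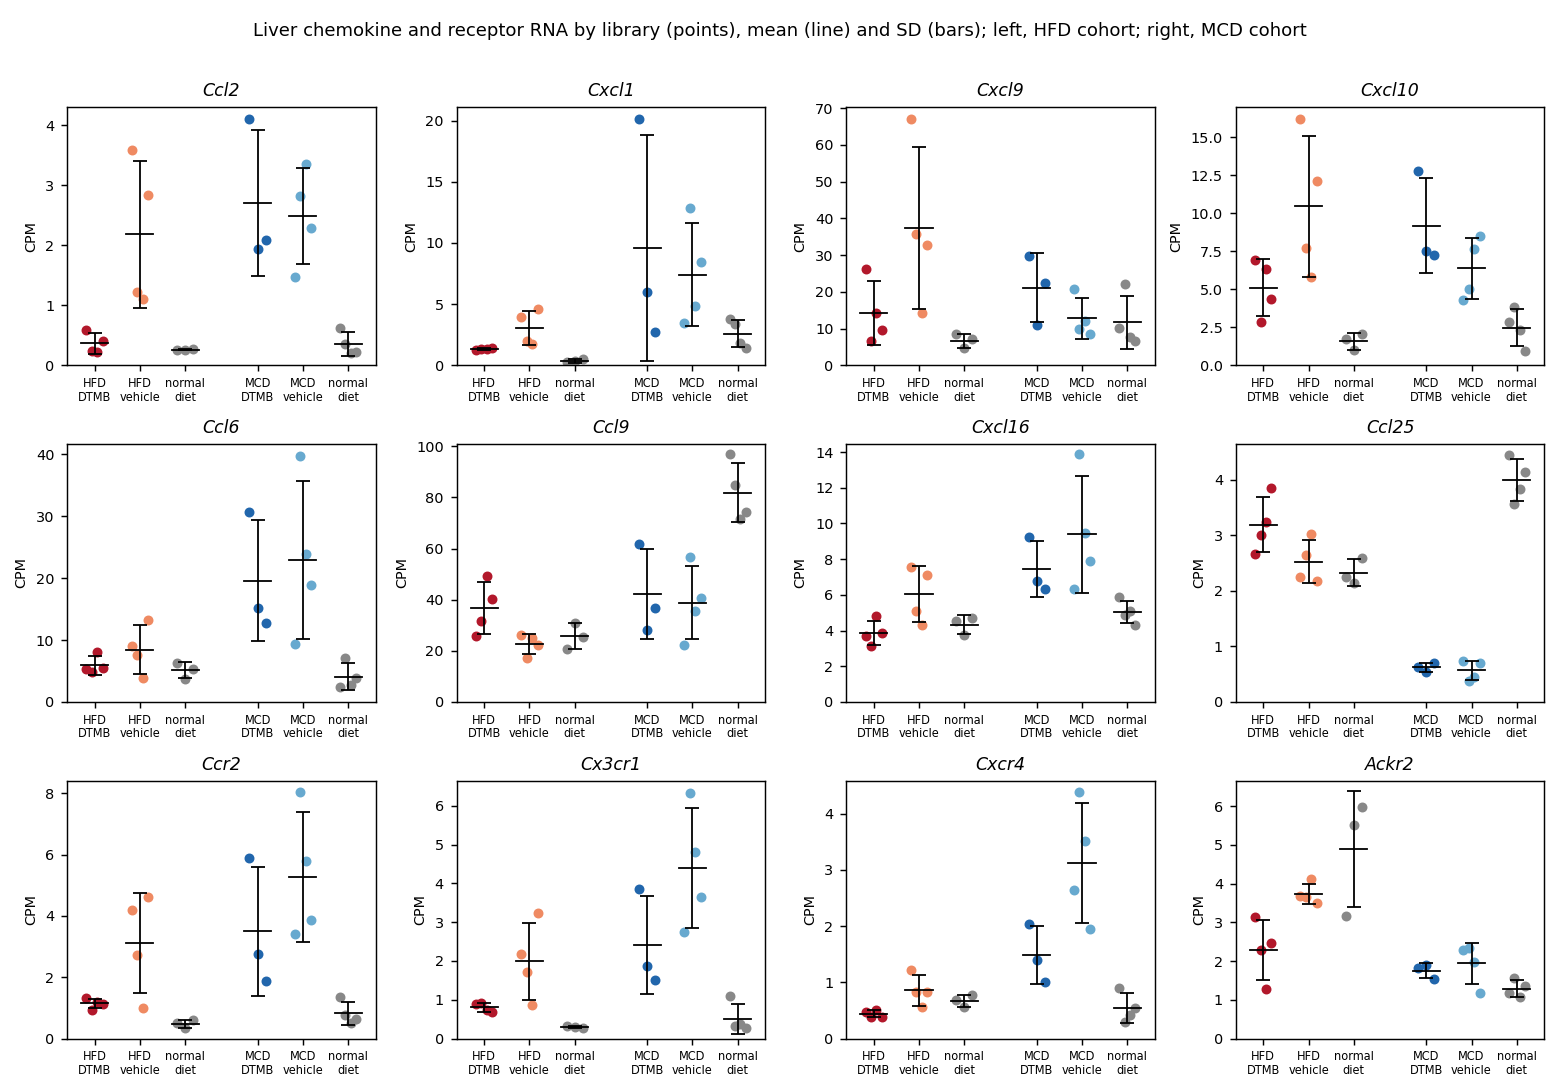
Normalised CPM (linear axes starting at 0) of 12 members in each library (points), with the group mean (line) and SD (bars); the left 3 groups of each panel are the HFD cohort and the right 3 the MCD cohort. Ccl2 in the 4 HFD DTMB livers lies between 0.214 and 0.593 CPM, below all 4 HFD vehicle livers, while the 3 MCD DTMB livers lie between 1.93 and 4.10 CPM, and Ccl25 is below 0.731 CPM or at it in all 7 MCD-fed livers.

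DTMB in MCD-fed mice gave no called member. Against MCD vehicle, 0 of 46 were called by edgeR, beside 0.00624% of all genes (1 of 16037), and 2 members had an unadjusted p under 0.05. DESeq2 and limma-voom called 0 members too. Ccl2 was at 4.10, 1.93 and 2.08 CPM in MCD DTMB livers and 1.47, 2.83, 3.35 and 2.29 CPM in MCD vehicle livers. The groups overlapped, and the log2 fold change was 0.12 with a 95% interval of -0.74 to 0.98. The same interval ran from -0.24 to 1.69 for Cxcl9, from -0.95 to 1.69 for Cxcl1 and from -1.90 to 0.17 for Cx3cr1.

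The 2 members with a small unadjusted p were Cxcr4 (-1.08 ± 0.39) and Cxcl5 (-2.50 ± 0.87), both with an edgeR adjusted p of 0.919. Cxcr4 was at 2.03, 1.40 and 1.01 CPM in MCD DTMB livers and 2.64, 4.38, 3.52 and 1.95 CPM in MCD vehicle livers, which overlap at the margin. Cxcl5 was at 0.0739, 0.0585 and 0 CPM in MCD DTMB livers and 0.0914, 0.357, 0.383 and 0.203 CPM in MCD vehicle livers, which do not. MCD DTMB library 1 was the highest of its group in most members, for example Cxcl1 at 20.1 CPM beside 5.95 and 2.73 CPM in the other 2. Of the marker and pathway lists named above, 0 genes were called in either direction in this comparison. The summed neutrophil list nevertheless ran between 120 and 146 CPM in MCD DTMB livers and between 35.3 and 70.3 CPM in MCD vehicle livers. That sum includes G0s2, which hepatocytes express too, so it is not a measure of neutrophils alone. Its part in the chemokine values was not tested.

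Against normal diet, MCD DTMB livers had 18 members called higher and 4 lower of 46, beside 32.6% of all genes, and the same normal-diet livers served for both MCD comparisons. Ccl25 was at 0.628, 0.541 and 0.704 CPM in MCD DTMB livers, against 4.44, 3.56, 3.83 and 4.14 CPM on normal diet (-2.68 ± 0.27, edgeR adjusted p = 2.78e-05). Those groups were far apart. Ccl2 was higher by 2.91 ± 0.43, beside 2.79 in MCD vehicle livers, and Ccr1 by 4.05 ± 0.73, beside 4.57. Cxcr4 was higher by 1.44 ± 0.40, beside 2.52. Ccr2 (2.08 ± 0.44), Cx3cr1 (2.21 ± 0.50), Ccl6 (2.28 ± 0.49), Cxcl10 (1.88 ± 0.40), Ccl4 (3.69 ± 0.79), Cxcl2 (3.06 ± 0.79), Ccl22 (3.02 ± 0.78) and Cxcl14 (1.23 ± 0.35) were also higher. So were Ccl5 (1.44 ± 0.42), Xcr1 (1.07 ± 0.33), Cxcr3 (1.12 ± 0.36), Ccr7 (1.27 ± 0.42), Cxcr2 (2.34 ± 0.81) and Cxcr1, whose ratio rests on 47 counts against 2. Ccl27a (-1.55 ± 0.25), Ccl27b (-1.65 ± 0.48) and Ccl9 (-0.96 ± 0.30) were lower. The limit set by the count minimum holds here too, for Ccl27b and for the members named above as low on normal diet. Cxcl1 was called here (1.88 ± 0.62), with overlapping groups and the highest value in MCD DTMB library 1. Without that library 13 members were called in place of 22.

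Whether the diets differed in their effect was tested directly, as the HFD effect minus the MCD effect in one fit of all 22 libraries. Of 48 members tested, 8 were called, 4 with a higher and 4 with a lower effect of HFD, beside 35.3% of all genes (18.5% higher, 16.8% lower). The difference was 2.91 ± 0.28 for Ccl25, 2.05 ± 0.28 for Ccl27a, 2.43 ± 0.52 for Ccl27b and 2.31 ± 0.72 for Cxcl9 (edgeR adjusted p = 1.66e-07, 1.40e-05, 0.00121 and 0.0166). Ccl25 itself was at 2.24, 2.65, 3.02 and 2.18 CPM in HFD vehicle livers and 2.25, 2.13 and 2.59 CPM on normal diet in that cohort, overlapping in part. The difference was -2.19 ± 0.47 for Cxcr4, -1.82 ± 0.62 for Ccl6, -1.01 ± 0.36 for Ackr2 and -4.92 ± 1.38 for Cxcr1 (edgeR adjusted p = 0.00126, 0.0264, 0.035 and 0.00906). Cxcr1 rests on few counts, with 2 in the normal-diet group of the MCD cohort. Without the acinar libraries of both cohorts, 3 were called, namely Ccl25, Ccl27a and Cxcr1. Cohort, diet and any difference in time on diet cannot be told apart in these contrasts.

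**Figure D4:**
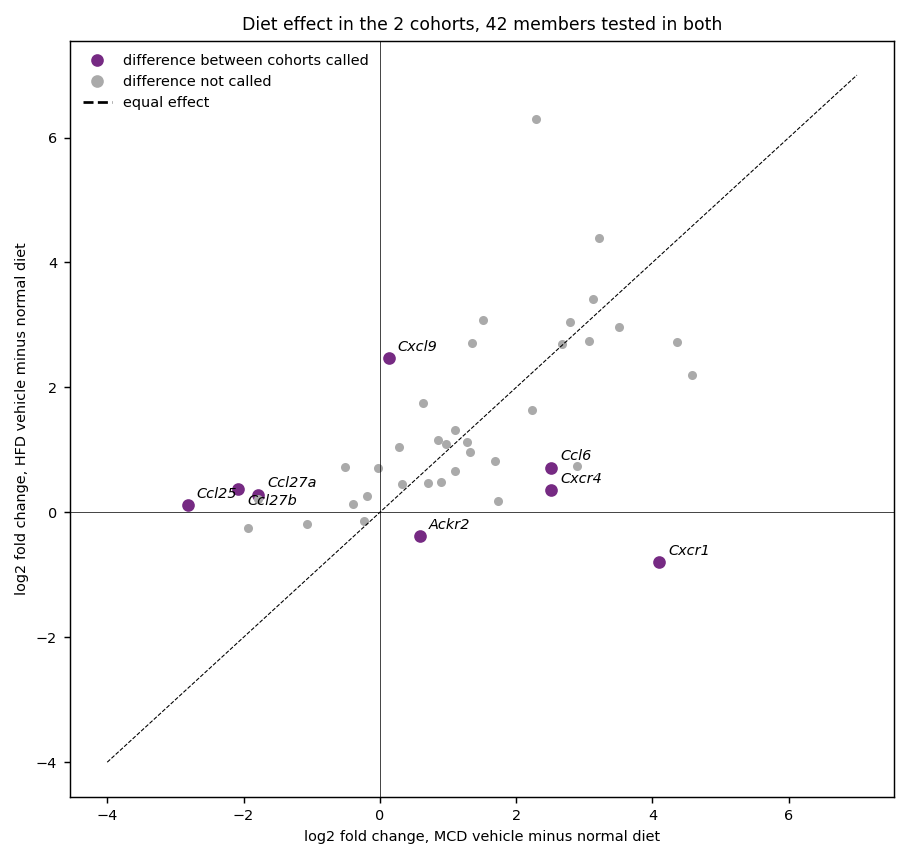
Log2 fold change of HFD vehicle against normal diet (vertical axis) and of MCD vehicle against normal diet (horizontal axis) for the 42 members tested in both cohorts; the dashed line marks equal effects. Purple marks the 8 members whose effects were called different, with Ccl25, Ccl27a and Ccl27b left of zero on the MCD axis and near 0 on the HFD axis, and Cxcl9 at 2.47 with HFD and 0.13 with MCD.

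The 2 diets have separate controls, so their lists can be set beside each other. Of the 13 members called higher with HFD, 8 (61.5%) were also called higher with MCD, where they made up 38.1% of the 21: Ccl2, Ccl3, Ccl4, Ccl22, Cxcl10, Ccr2, Cx3cr1 and Xcr1. Of the 42 members tested in both cohorts, 20 were called higher with MCD, so the overlap is given as a description. Ccl3, Ccl4 and Ccl22 passed the count minimum through the HFD-fed or MCD-fed livers in both cohorts, and Xcr1 in the HFD cohort. That part of the overlap is not independent of the filter. The DTMB effect of the HFD cohort minus that of the MCD cohort was called in 0 of 48 members by edgeR, as in 0% of all 16541 genes, with 4 members at an unadjusted p under 0.05. Those were Ccl2 (-2.68 ± 0.61, edgeR adjusted p = 0.267), Cxcl9 (-2.11 ± 0.70, 0.432), Cxcl10 (-1.55 ± 0.55, 0.460) and Cxcl1 (-1.56 ± 0.73, 0.574). DESeq2 called 1 member of this contrast. The effect of DTMB was therefore not shown to differ between the cohorts by edgeR.

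Ligands and receptors that bind each other were not always called in the same comparisons. Ccl2 and Ccr2 were called higher with both diets and lower with DTMB in HFD-fed mice. With HFD, Cxcl9 and Cxcl10 were called higher while their receptor Cxcr3 was not (0.17 ± 0.68), and with MCD Cxcr3 and Cxcl10 were called and Cxcl9 was not. Cx3cr1 was called with both diets, while its ligand Cx3cl1 was at 0.47 ± 0.32 with HFD and 0.71 ± 0.35 with MCD and was called with neither. Cxcl12 was not called with either diet, its receptor Cxcr4 was called with MCD, and Ackr3, the scavenging receptor of Cxcl12, was at 0.71 ± 0.40 with HFD and -0.02 ± 0.49 with MCD. Cxcl16 and Cxcr6 were called with MCD alone. Ccr7 was called with MCD and its ligand Ccl19 with HFD, while Ccl21a was called with neither; Ccl21a shares 71.6% of its 50-base words with other genes. Cxcl13, the B cell chemokine, was called with neither diet (-0.24 ± 0.61 with HFD, -1.93 ± 0.95 with MCD), and its receptor Cxcr5 could be tested in the HFD cohort alone (0.88 ± 0.66). The difference between the diets was itself not called for Cxcr3, Cxcl16, Cxcr6, Ccr7, Ccl19 or Cx3cl1 (edgeR adjusted p = 0.128, 0.304, 0.666, 0.610, 0.269 and 0.704), so a call with 1 diet alone is not shown to be a difference between diets.

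Many members lie in clusters of tandem copies. With gaps under 500000 bases between neighbours, 7 clusters of 3 or more held 37 of the 63 genes (coordinates in GRCm38). The CC cluster chr11:83525778-83664683 holds Ccl5, Ccl9, Ccl6, Ccl3 and Ccl4, and with MCD 4 were higher and Ccl9 lower. Of all genes, 20.3% were called higher and 21.0% lower with MCD. In this cluster Ccl3 and Ccl4 passed the count minimum through the MCD-fed livers. The cluster chr5:90759298-90905938 holds the Cxcr2 ligands with Cxcl15, and chr5:92321331-92363296 holds Cxcl9, Cxcl10 and Cxcl11. In that last cluster 2 of 3 were called higher with HFD and 1 of 3 with MCD, beside 15.2% and 20.3% of all genes. Neighbours in a cluster are separate genes here but may share reads where their sequences are alike.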

How the data were processed

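Poly(A) RNA of 22 mouse livers was sequenced with a stranded kit, per the labels' protocols. The submitters' processing notes name FastQC 0.11.7, Trimmomatic 0.38, HISAT2 2.1.0 and StringTie 2.1.3b with build mm10. The authors deposited raw read counts per gene in 2 tables, 1 per cohort. Neither the counting tool's settings nor its use of strand is stated in those notes, so opposite-strand overlaps and near-identical copies stay uncertain.

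Counts were tested in R 4.3.3 with edgeR 4.0.16 (quasi-likelihood, filterByExpr with a minimum count of 10, TMM), 1 fit per cohort of 11 libraries and 3 groups. P-values were Benjamini-Hochberg adjusted over all genes tested, 15597 and 16037, and called under 0.05. The cohort contrasts used 1 fit of 22 libraries. The code was tested on simulated data. Members are all matching symbols, every called member but 1 that is not reported here is named, up to 8 of smallest p per comparison with library values, and known ligand-receptor pairs are described whatever their result; members and lists were chosen with earlier results of these data known. Alternatives were DESeq2 1.42.0, limma 3.58.1 (voom), other scalings and filters, other samples, a replicate block, and leaving out libraries. Total counts of 50078966 to 66727450 limit the precision of members with few counts. Counting intervals and floors cover counting error only. The 95% intervals of log2 fold changes come from edgeR's test and include the spread between libraries. Exon lengths came from GENCODE on GRCm38 (62 of 63 members). No 2 libraries were near duplicates (lowest chi-square per degree of freedom 26.7).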

Additional observations from a re-analysis of the deposited data

Results flagged for a closer look

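The HFD effect and the MCD effect differed in 8 members, by the test of the difference itself (HFD effect minus MCD effect, log2). The values were 2.91 for Ccl25, 2.43 for Ccl27b, 2.31 for Cxcl9 and 2.05 for Ccl27a, and -4.92 for Cxcr1, -2.19 for Cxcr4, -1.82 for Ccl6 and -1.01 for Ackr2. Of all genes, 35.3% were called in this contrast, so a difference was not particular to the members. Cohort and diet cannot be told apart in it.

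In groups of 4 libraries, the highest or lowest library stood apart from the others in 13 of 179 gene and group combinations by Dixon's test at the 95% level. Chance gives about 1 in 20. HFD DTMB library 1 had 0.180 CPM of Ccl3 while the others were at 0, HFD DTMB library 2 had 0.262 CPM of Ccr7, and HFD DTMB library 4 had 0.982 CPM of Cxcl11. HFD vehicle library 3 was low, with 0.129 CPM of Cxcr3 and 0.194 CPM of Ccl4. MCD vehicle library 2 was high, with 4.66 CPM of Cxcl14 and 0.845 CPM of Ccl19-ps1.

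On normal diet in the MCD cohort, library 1 was high in Cx3cr1 (1.09 CPM) and had the group's counts of Cxcr1 (0.0370 CPM). Library 2 of that group was high in Cxcl14 (1.31 CPM), Cxcr6 (0.429 CPM), Ccl7 (0.316 CPM) and Ccr9 (0.226 CPM), and its summed monocyte and macrophage markers, at 651 CPM, were also the highest of the group.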

How the results depend on the processing

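No called member changed sign under any setting run. The counts below are of members alone, without the share of all genes called under the same setting. They describe how the calls depend on processing and say nothing particular about the members. DESeq2 called 9 members in HFD DTMB against normal diet and 1 in the DTMB contrast between cohorts. Limma-voom called 15 in HFD DTMB against HFD vehicle and 3 in HFD DTMB against normal diet. Without a count filter, 7 were called in HFD vehicle against normal diet and 5 in HFD DTMB against HFD vehicle. A stricter filter, which tests fewer members, gave 7 in HFD vehicle, 14 in MCD vehicle and 14 in MCD DTMB, each against normal diet. With all libraries in 1 fit, HFD DTMB against HFD vehicle had 1. In the fits per cohort, 5 of the 8 calls of that comparison had a log2 change of 1 or more in size. Without the acinar libraries the counts were 2 in HFD vehicle against normal diet, 0 in HFD DTMB against HFD vehicle, 2 in HFD DTMB against normal diet and 3 in the diet contrast; the cause was not tested in these settings beyond their fewer samples or genes.

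Leaving out 1 library gave 7 to 18 calls in HFD vehicle against normal diet, 1 to 16 in HFD DTMB against HFD vehicle, 4 to 8 in HFD DTMB against normal diet, 21 to 27 in MCD vehicle against normal diet, 13 to 23 in MCD DTMB against normal diet, 6 to 10 in the diet contrast, and 0 in both other contrasts. Same-numbered libraries did not all deviate together: correlations were -0.57 to 0.56 in the HFD cohort, where the 3 pairs of number 2 were at 0.56, 0.40 and 0.28, and -0.41 to 0.12 in the MCD cohort. A replicate block gave 8 calls in HFD vehicle against normal diet, 3 in HFD DTMB against HFD vehicle (1 of them among the 8) and 14 in MCD DTMB against normal diet, and moved no other count by over 1.5 times. Under library size alone the median of all genes was 0.14 in HFD vehicle, -0.17 in HFD DTMB against vehicle, 0.47 in MCD vehicle and 0.37 in MCD DTMB against normal diet, where 23 members were higher and 2 lower. Members with under about 10 counts in a group (Ccl3, Ccl4, Ccl7, Ccl22, Cxcl2, Cxcl5, Cxcr1 and Cxcr2) are limited by depth.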

Other observations

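Normal-diet livers of the 2 cohorts stood at different levels for some members, which were not tested since each cohort has its own scaling. Ccl9 was at 81.9 ± 11.6 CPM on normal diet in the MCD cohort (SD, n = 4), against 25.7 ± 5.08 CPM on normal diet in the HFD cohort (SD, n = 3). Cxcl1 was at 2.60 ± 1.13 and 0.364 ± 0.154 CPM in the same order, and Ackr2 was at 4.89 ± 1.51 CPM in the HFD cohort with every MCD-cohort normal-diet library between 1.07 and 1.56 CPM. Batch and any other difference between the cohorts cannot be told apart here.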
